A study of Mus musculus with 2 samples.

Results

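The barcodes described here, from mouse hepatocellular carcinomas, were called endothelial by their RNA. Endothelial cells line the tumour's blood vessels. Whether 10 of these barcodes, set apart below, hold such cells was not tested. The barcodes came from 2 single-cell RNA-seq libraries, 1 of tumours with the control hairpin shCtrl (genotype label WT) and 1 of tumours with shSrsf10, a hairpin against the splicing factor Srsf10. A barcode was kept when it had at least 200 genes, at most 20% mitochondrial UMIs (unique molecular identifiers, the counted RNA molecules) and little keratin RNA (Krt8 plus Krt18 at most 1 UMI, or under 0.1% of its UMIs). The members were chosen by measured RNA: a kept barcode was called endothelial when Pecam1, Cdh5, Kdr, Flt1, Plvap, Gpihbp1, Egfl7 and Ramp2 gave at least 4 UMIs together and Ptprc, the leukocyte antigen CD45, gave none. This gate found 106 of 17473 barcodes, or 106 of the 5179 kept. Of these, 76 were among 2143 kept barcodes of shCtrl, 3.55% (exact 95% interval 2.80 to 4.42), and 30 were among 3036 of shSrsf10, 0.988% (0.668 to 1.41). The kept barcodes also differed in their leukocytes: Ptprc was seen in 24.6% of the other kept barcodes of shCtrl and in 54.6% of those of shSrsf10. Fewer endothelial cells and more cells of other kinds in the loaded suspension cannot be told apart from these shares.

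With 1 library in each group there was no replicate and no test. Ratios are descriptions of these 2 libraries, and intervals cover counting error only. The labels do not say how many animals each library holds or which cells carry the hairpin. They also differ on the preparation: the series text names a tumour digest, a sort with no stated gate and a 5' kit, while the sample text names a 3' v3 kit and low-speed centrifugation of liver cells to remove hepatocytes. Which of these steps the cells went through, and how that bears on the endothelial share, was not tested.

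Endothelial cells form the inner layer of every vessel, where they hold the barrier, pass nutrients and decide which leukocytes enter. In the normal liver they are mostly sinusoidal: flat, fenestrated cells without a continuous basement membrane that clear waste through the stabilin and mannose receptors. In liver tumours the vessels are known to take on a more continuous, capillary type, with a collagen IV basement membrane and lipid-handling genes such as Fabp4, and to respond to VEGF, Notch and angiopoietin signals.

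3 genes carry the contrasts below, and the 250 bases before their RefSeq start (GRCm38.p6) are shown here because they differ in what they mark. Emcn encodes endomucin, a sialomucin of the endothelial surface, and leads the genes of at least 100 CPM in the members by its ratio to the other kept barcodes. Clec4g and Stab1 encode a lectin and a scavenger receptor of liver sinusoids. The windows are chr3:137340828-137341077 (plus strand), chr8:3720652-3720901 (minus strand) and chr14:31168642-31168891 (minus strand), each printed 5′ to 3′ on the gene's strand. Capitals mark the core of the site bound by ETS factors, such as Erg and Fli1 of endothelial cells (AGGAAG, or CTTCCT on the other strand).
Emcn: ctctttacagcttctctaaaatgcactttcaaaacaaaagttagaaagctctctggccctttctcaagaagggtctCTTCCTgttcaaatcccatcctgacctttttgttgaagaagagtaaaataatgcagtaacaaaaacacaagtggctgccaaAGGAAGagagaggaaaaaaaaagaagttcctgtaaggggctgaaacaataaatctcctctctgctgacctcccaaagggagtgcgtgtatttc
Clec4g: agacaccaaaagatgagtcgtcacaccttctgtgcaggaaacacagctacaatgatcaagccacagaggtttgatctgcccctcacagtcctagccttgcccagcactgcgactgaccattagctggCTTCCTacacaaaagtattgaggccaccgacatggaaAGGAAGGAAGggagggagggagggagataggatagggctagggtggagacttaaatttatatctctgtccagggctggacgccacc
Stab1: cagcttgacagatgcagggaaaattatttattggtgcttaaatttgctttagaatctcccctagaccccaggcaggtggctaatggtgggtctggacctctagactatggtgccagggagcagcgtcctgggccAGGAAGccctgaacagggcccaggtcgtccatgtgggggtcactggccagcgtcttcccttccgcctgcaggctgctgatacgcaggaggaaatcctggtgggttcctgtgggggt
The Emcn window held 2 matches, the Clec4g window 3, of which 2 overlap, and the Stab1 window 1. The GATA core AGATAA was on neither strand of the 3 windows, which says only that these letters are not there. Over 300-base windows that also take in the first 50 transcribed bases, AGGAAG was found in 35.1% of 27025 promoters, in 10 of the 17 available for the 25 leading genes below and in 4 of the 6 available for the 12 genes of the sinusoid list. The GATA core was in 11.4% of all windows, in 2 of those 17 and in 0 of those 6. Such short matches are a description, not binding sites.

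The members were unequal in depth. The 76 of shCtrl held 543 to 39882 UMIs (median 1555) and the 30 of shSrsf10 held 585 to 25099 (median 5982.5). Their gate genes gave a median of 9 and 28 UMIs, or 0.640% and 0.845% of all UMIs. At the threshold, 11 members of shCtrl and 2 of shSrsf10 had exactly 4 gate UMIs, and 11 and 5 barcodes without Ptprc stood just outside with 3. A further 3 and 2 kept barcodes passed the gate genes but had Ptprc. Of the keratin-rich barcodes, 154 and 164 passed them, and in 5 and 3 of these the gate genes made up 0.2% of UMIs or more. The libraries shared 67 barcode sequences, none of them among the members.

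10 members stood apart, with gate genes under 0.2% of their UMIs (4 to 12 gate UMIs in barcodes of 4765 to 39882). They were 6 of shCtrl and 4 of shSrsf10, and they held 45.0% and 25.2% of the members' UMIs. In 4 of them over 100 UMIs came from hepatocyte and tumour epithelial genes (up to 783), and in 4 over 50 came from fibroblast genes (up to 306). Whether these barcodes hold endothelial cells was not tested. Values are therefore also given for the other 96 members (70 and 26, medians 1458.5 and 4449.5 UMIs), called the gate-rich members, a limit chosen after the data were seen.

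**Figure D1:**
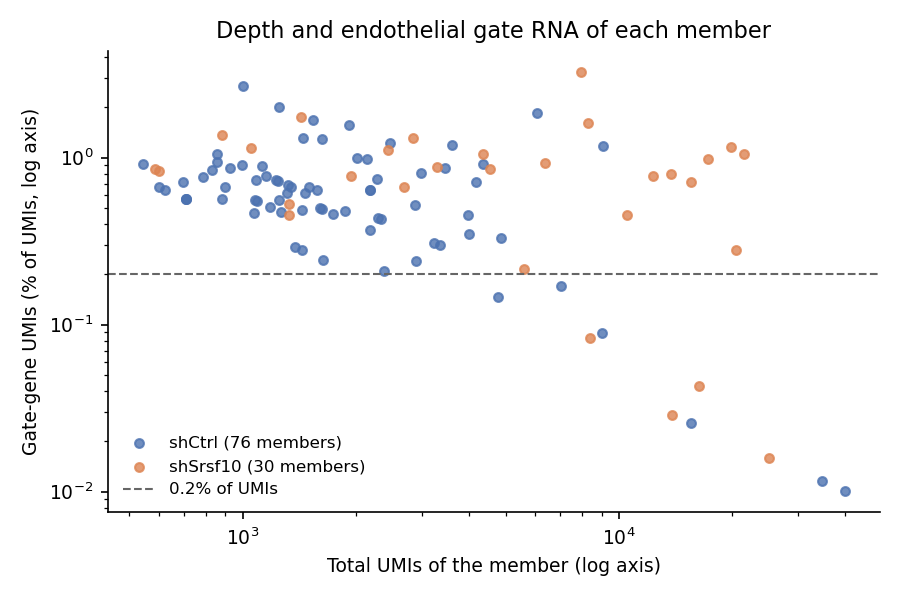
Total UMIs of each of the 106 members (x, log axis) against the share of its UMIs from the 8 gate genes (y, percent, log axis), by library. The dashed line marks 0.2%; the 10 points under it all have at least 4765 UMIs, while most shCtrl members lie to the left of the shSrsf10 ones.

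Srsf10 itself did not separate these cells. It gave 12 UMIs in the members of each library, 48.7 CPM (a gene's UMIs scaled to a common total per class) in shCtrl and 47.5 in shSrsf10, a log2 ratio of -0.03 (-1.32 to 1.25). In the keratin-rich barcodes, which hold the tumour cells, it was lower in shSrsf10, 20.1 against 45.9 CPM (log2 -1.19, -1.26 to -1.12). The other kept barcodes had 51.8 against 57.2 CPM. At 12 UMIs a library, a lowering of the size seen in the keratin-rich barcodes lies within the interval of the members.

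The members carried the markers of their label. These genes chose the members or were read from the same cells, so their levels are a description. Fabp4 (chr3:10204088-10208576, minus strand, protein coding; GENCODE vM21), a fatty acid carrier of capillary endothelium, had 4793 CPM in the shCtrl members and 13655 in the shSrsf10 members, against 20.03 in the other kept barcodes of both (log2 8.86 for both summed, 8.69 to 9.02). It was seen in 87.7% of members and in 1.46% of the others. Gpihbp1 (chr15:75596628-75599481, plus strand, protein coding), which holds lipoprotein lipase on the capillary wall, had 1602 and 3099 CPM against 4.87 (log2 8.92), in 82.1% of members and 0.414% of others. Flt1, a VEGF receptor, had 633 CPM in the members of both libraries against 2.25 in the others, and Plvap, of the diaphragm that spans fenestrae, had 593 against 4.44. Ramp2, the partner of the adrenomedullin receptor, had 851 CPM against 2.25. Col4a1, a collagen IV chain, was outside the gate and had 727 CPM against 8.70 (log2 6.38). Of the gate genes, Pecam1 was the one with the smallest ratio, 236 against 16.2 CPM (log2 3.87). It is also made by leukocytes and platelets, and was seen in 4.85% of the other kept barcodes.

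Endothelial genes outside the gate were also higher in the members. Of 3734 genes with enough UMIs, 836 (22.4%) were at least 2-fold higher in the members than in the other kept barcodes and 499 (13.4%) at least 2-fold lower, with a median log2 ratio of 0.12 over all genes. In shCtrl alone 368 of 1888 genes (19.5%) were higher and 179 (9.48%) lower, and in shSrsf10 alone 498 of 2033 (24.5%) and 333 (16.4%). Of these 3734, 989 had enough UMIs only through the members and so are higher there by construction, and counts of such genes are not read below. Among the other 2745, whose UMIs expected from the other kept barcodes sufficed, 5.43% were that much higher and 18.2% that much lower. In the gate-rich members 30.2% of 2749 genes were higher and 15.6% lower. Lists are therefore given by the summed CPM of all their genes, with no minimum. The 22 endothelial genes outside the gate summed to 5842 CPM against 210.2 (log2 4.80, 4.73 to 4.87), and to 8635 CPM in the gate-rich members (log2 5.36). Of these 22, 19 were measured only through the members, 2 also through the others, and 1 was under the minimum. The 25 leading genes below are the highest ratios among genes outside the gate with at least 100 CPM and 20 UMIs in the members and a UMI in at least 20% of them. The first was Emcn (chr3:137341067-137432185, plus strand), 545 CPM against 0.548 (log2 9.96, 9.01 to 11.10). Kcne3, a potassium channel subunit, followed with 409 against 0.548 (log2 9.54), then Cldn5, the tight junction claudin of endothelium, with 222 against 0.365 (log2 9.25). Others among the 25 leading genes were the Notch ligand Dll4 (log2 8.71), the guidance receptor Robo4 (8.52), the orphan receptor Tie1 (7.81), the phosphatase Ptprb (7.61), the connexin Gja1 (8.65), the matrix protein Mmrn2 (8.75) and the transcription factor Erg (7.09).

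**Figure D2:**
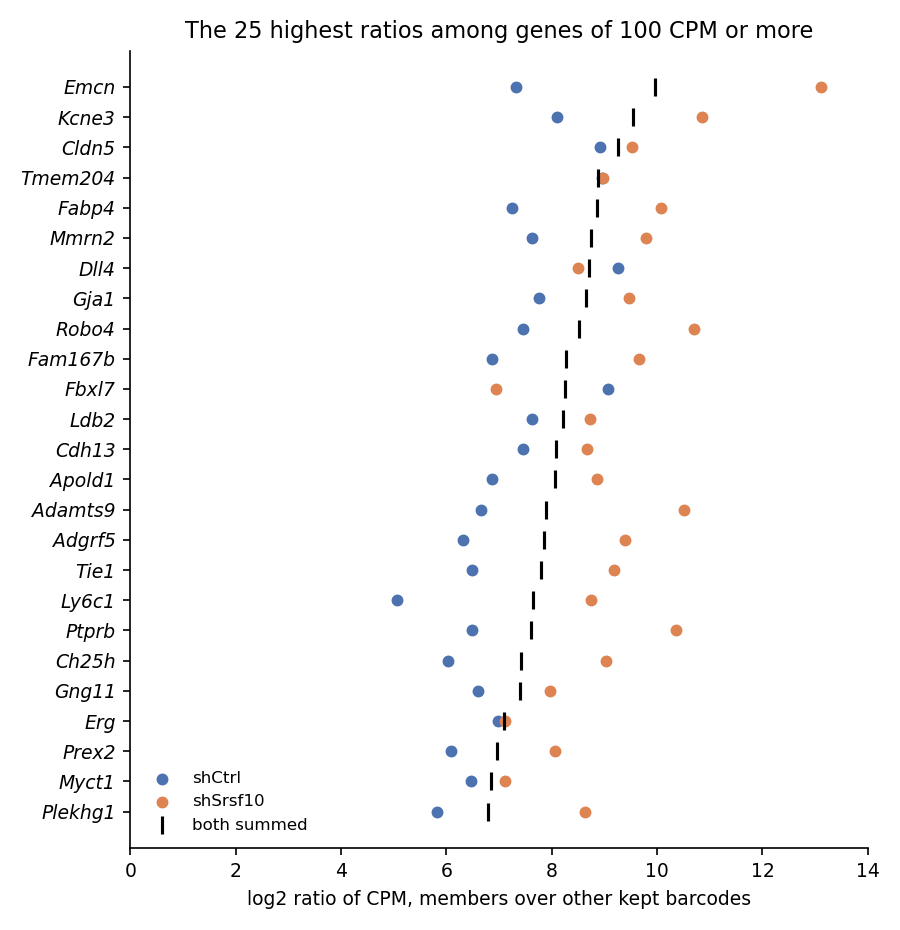
Log2 ratio of CPM, members over other kept barcodes (x), of the 25 genes with the highest ratios among those outside the gate with at least 100 CPM in the members (y), in shCtrl, in shSrsf10 and with both summed. Every point lies above 5, and the libraries are farthest apart for Emcn, whose ratio rests on very few UMIs outside the members.

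Among genes of at least 200 CPM in the other kept barcodes, those with the lowest ratios belong to lymphocytes and plasma cells. Igha, an antibody heavy chain, had 1 UMI in the members, 2.00 CPM against 3979 in the other kept barcodes. Cd3g, of the T cell receptor complex, had 1 UMI (others 693 CPM), as did the granzyme Gzmb (693), Ms4a4b (829), the adhesion receptor Cd2 (303) and the costimulatory receptor Tnfrsf4 (289). The antibody joining chain Jchain had 0 UMIs against 980 CPM. The chemokine Ccl5 had 17 UMIs, 34.0 CPM against 5592. Ptprc at 0 was part of the gate, so low leukocyte RNA is partly what the rule chose.

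Lists of vascular signalling genes had higher sums in the members. The VEGF receptors and co-receptors, which include the gate genes Kdr and Flt1, summed to 1258 CPM against 81.3 (log2 3.95). Kdr, the main receptor, had 158 against 0.974 CPM, and the co-receptor Nrp1, outside the gate, had 170 against 22.3 (log2 2.93). The angiopoietin and Tie list summed to 320 CPM against 13.2 (log2 4.60), with the receptor Tie1 at 136 CPM against 0.609. The Notch list summed to 535 CPM against 77.3 (log2 2.79), with log2 ratios of 2.43 for the receptor Notch1, 7.53 for Notch4 and 2.76 for the target Hes1. The BMP and TGF-beta list differed less, 2560 against 1134 CPM (log2 1.17). Its co-receptor Eng had 411 CPM against 5.48 and the targets Id1 and Id3 had log2 ratios of 2.07 and 2.58, while Id2, also of leukocytes, was lower, 212 against 654 CPM.

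Structural genes had higher sums too. The 14 basement membrane genes summed to 7595 CPM against 245 (log2 4.96, 4.89 to 5.02). Sparc, a collagen-binding matrix protein, had 4859 CPM against 115 (log2 5.40) and was seen in 92.5% of members against 10.1% of others. Col4a2 had 911 against 8.89 CPM, and the heparan sulphate proteoglycan gene Hspg2 had 270 against 14.4. The junction list, with the gate genes Cdh5 and Pecam1, summed to 1396 CPM against 57.6 (log2 4.60). The list of fenestrae and caveolae, which holds the gate gene Plvap, summed to 1584 CPM against 73.6 (log2 4.43), with the caveolin Cav1 at 54.1 CPM against 0.183. Leukocyte adhesion genes summed to 1272 CPM against 128 (log2 3.31), with Icam2 at 579 against 23.8 CPM, Vcam1 at 162 against 41.8 and Icam1 at 116 against 51.9. Genes of vascular tone and clotting, which regulate vessel width and blood flow, summed to 599 CPM against 97.0 (log2 2.63). Among them were the nitric oxide synthase Nos3 (74.1 against 1.77 CPM) and the endothelin gene Edn1 (40.1 against 0.365). The capillary lipid uptake list summed to 14635 CPM against 1069 (log2 3.78). Beside Fabp4 and Gpihbp1, the scavenger receptor Cd36 had 76.1 against 10.4 CPM and Fabp5 had 2770 against 909.

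Lists of several vessel types had higher sums in the members. The lists share a few genes (Lyve1 and Flt4 are on both the sinusoid and the lymphatic list). The sinusoid list summed to 1015 CPM against 131 (log2 2.96, 2.82 to 3.10), with Clec4g (140 against 1.34 CPM, log2 6.71), Stab1 (128 against 4.38), Stab2 (118 against 3.96), Lyve1 (66.1 against 0.609) and Oit3 (66.1 against 0.730). The capillary list, nearly all of it Fabp4 and the gate gene Gpihbp1, summed to 12141 CPM against 105 (log2 6.85), with Aqp1, a water channel, at 236 against 3.11 CPM. The list of tip cells, which lead a sprout, summed to 1829 CPM against 62.3 (log2 4.87), with Esm1 at 407 against 8.95 CPM and the peptide hormone gene Apln at 70.1 against 0.183. The artery list summed to 435 CPM against 4.08 (log2 6.74), with the connexin Gja4 at 204 against 0.913 CPM and Sox17 at 46.1 against 0.183. This sum rested on few members. An artery UMI was in 23 of 76 shCtrl and 19 of 30 shSrsf10 members, and a Gja4 UMI in 5 and 11. Among gate-rich members, the 2 richest in each library held 47.5% and 56.5% of the artery UMIs. Counting members with at least 2 UMIs of a list, 69 of 106 had both sinusoid and capillary RNA, 30 capillary RNA alone, 2 sinusoid RNA alone and 5 neither. Among the 96 gate-rich members these were 67, 27, 0 and 2. In the other kept barcodes, at least 2 sinusoid UMIs were in 10.5% of shCtrl and 6.59% of shSrsf10, and at least 2 capillary UMIs in 5.08% and 5.42%. The members are unequal in depth, and with each thinned to 1000 UMIs the sinusoid share was 54.3% in shCtrl and 12.1% in shSrsf10 and the capillary share 89.6% and 86.3%. The capillary list holds Gpihbp1, so its share is partly set by the rule, and free RNA or doublets as a source of the joint reads were not tested.

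Immune and activity genes were mixed. The immediate early list summed to 6437 CPM against 1899 (log2 1.76). Of its 12 genes with enough UMIs expected from the other kept barcodes, 10 were at least 2-fold higher, where 5.43% of all such genes were, such as Fos (803 against 96.7 CPM) and the flow-responsive factor Klf2 (525 against 66.5). The interferon gamma response list summed to 2119 CPM against 850 (log2 1.32). Of its 6 genes with enough UMIs in the others, 1 was lower and 3 were higher, such as the T cell attractants Cxcl10 (765 against 188 CPM) and Cxcl9 (409 against 114). The type I interferon list summed to 2818 CPM against 2012 (log2 0.49), with Bst2, a virus-tethering protein, at 1498 against 283 CPM and Ifi27l2a at 216 against 1016. MHC class I genes stood near the other kept barcodes, 11 of 12 within 2-fold, and the list summed to 10189 CPM against 9285 (log2 0.13) and 2117 in the keratin-rich barcodes (log2 2.27). MHC class II genes summed to 477 CPM against 5971 (log2 -3.65), with the invariant chain Cd74 at 164 against 2273 CPM. The chemokine list was lower, 787 against 6078 CPM (log2 -2.95), with Ccl2 at 260 against 32.8 CPM and Cxcl2 at 62.1 against 327. In shCtrl this list gave 273 UMIs in all members and 119 in the gate-rich ones. Outside the gate-rich set, 2 shCtrl members with 235 and 107 fibroblast UMIs held 79 and 65 of the chemokine UMIs. Their part in the Ccl2 level was not tested. Cycling genes were within 2-fold for 6 of 8 and lower for 2. Hypoxia and glycolysis genes were within 2-fold for 6 of the 7 with enough UMIs in the others, and lower for 1. Over all 2745 such genes 18.2% were lower and 5.43% higher, so these counts and that of MHC class I are near the background.

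Markers of other cells were read in the same barcodes. T and NK genes gave 11 UMIs over all members, with Cd3e, Cd3d, Cd8a, Trbc2, Gzma and Ncr1 at 0, and B and plasma genes gave 3. Neutrophil genes gave 18, platelet genes 8 and red cell genes 11. Macrophage genes gave 119, of which 57 were in 1 gate-rich shCtrl member. Fibroblast genes summed to 1588 CPM in all members against 83.4 in the other kept barcodes (log2 4.25), but to 83.2 CPM, 27 UMIs, in the gate-rich members. Mural genes, of pericytes and smooth muscle, summed to 783 CPM against 40.2 (log2 4.28), and to 166 CPM in the gate-rich members (log2 2.05). Hepatocyte and tumour epithelial genes summed to 5203 against 6348 CPM, and to 2076 in the gate-rich members. In the gate-rich members the basement membrane list summed to 9396 CPM (log2 5.26). The part of fibroblast and mural RNA in that sum was not tested.

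**Figure D3:**
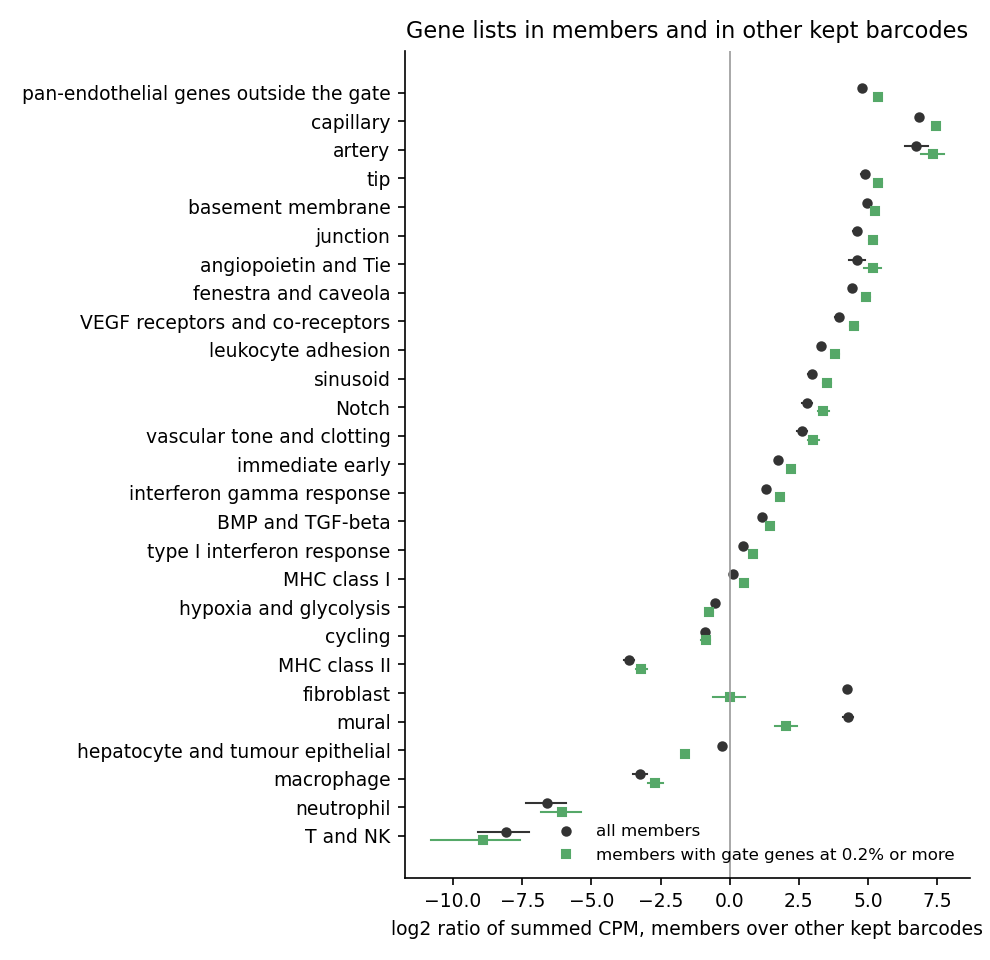
Log2 ratio of summed CPM (x) of each gene list (y), members over other kept barcodes of both libraries, for all 106 members and for the 96 gate-rich ones. Lines are 95% intervals of counting error. The fibroblast list lies at 4.25 with all members and near 0 in the gate-rich ones, while the pan-endothelial list lies at 4.80 and 5.36.

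Between the libraries, the sinusoid genes differed together. At a fold of 1.5, 724 of 3098 genes (23.4%) were higher in the shSrsf10 members and 653 (21.1%) lower, with a median log2 of 0.04. Of the 12 listed sinusoid genes 10 were measured, and all 10 were lower (median -1.80), and in the gate-rich members again 10 of 10 (median -2.23), where 22.4% of 2254 genes were higher and 25.6% lower. Summed over the list, the gate-rich members had 2800 CPM in shCtrl and 529 in shSrsf10 (log2 -2.40, -2.74 to -2.08). In the other kept barcodes the same sum was 166 and 108 CPM (log2 -0.63). Clec4g had 57 UMIs, 231 CPM, in shCtrl and 13 UMIs, 51.5 CPM, in shSrsf10, seen in 27 of 76 and 5 of 30 members. Stab1 had 199 and 59.4 CPM, in 29 and 12 members, and Stab2 had 187 and 51.5 CPM, in 31 and 7. Oit3, an epidermal growth factor domain protein of liver sinusoids, had 126 and 7.92 CPM, in 20 and 2 members.

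Depth moved with the library and with the sinusoid share. In gate-rich members of 500 to 1000 UMIs the list had 5773 CPM in 15 of shCtrl and 0 UMIs in 3 of shSrsf10, whose 2067 UMIs together set a wide limit. At 1000 to 5000 UMIs it had 2789 CPM in 53 members and 1873 in 11. Above 5000 UMIs it had 594 CPM in 2 members and 307 in 12. The shSrsf10 sum was also concentrated: 46 of its 100 UMIs in gate-rich members came from 2 members, 33 in 1 of 2434 UMIs. Within 1000 to 5000 UMIs the log2 ratio was -0.57, and -1.91 after leaving out the member of each library richest in sinusoid RNA. When each barcode was thinned to 1000 UMIs, which left out 15 shCtrl and 3 shSrsf10 members, at least 2 sinusoid UMIs were in 54.3% of 61 shCtrl members (41.1 to 67.1) and 12.1% of 27 shSrsf10 members (2.83 to 30.4). Unthinned shares were 73.7% and 50.0%, and in the other kept barcodes the thinned shares were 3.92% and 1.86%. The ratio was below 0 in each of these settings, but its size depended on depth and on 1 shSrsf10 barcode. The part of depth in the difference was not tested further. Macrophage genes, from cells that share several of these receptors, also had fewer UMIs in shSrsf10: 744 and 63.5 CPM in gate-rich members. A UMI of macrophage genes was in 11 of 70 and 5 of 26 gate-rich members. These counts are unthinned, and the median depths were 1458.5 and 4449.5 UMIs, so they do not compare the libraries at equal depth. Of the 101 UMIs in shCtrl, 57 were in 1 member. The Kupffer cell genes Clec4f and Cd5l had 14 and 22 UMIs in shCtrl and 0 in shSrsf10, and Marco had 0 in both. The part of macrophage RNA in the sinusoid ratio was not tested.

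**Figure D4:**
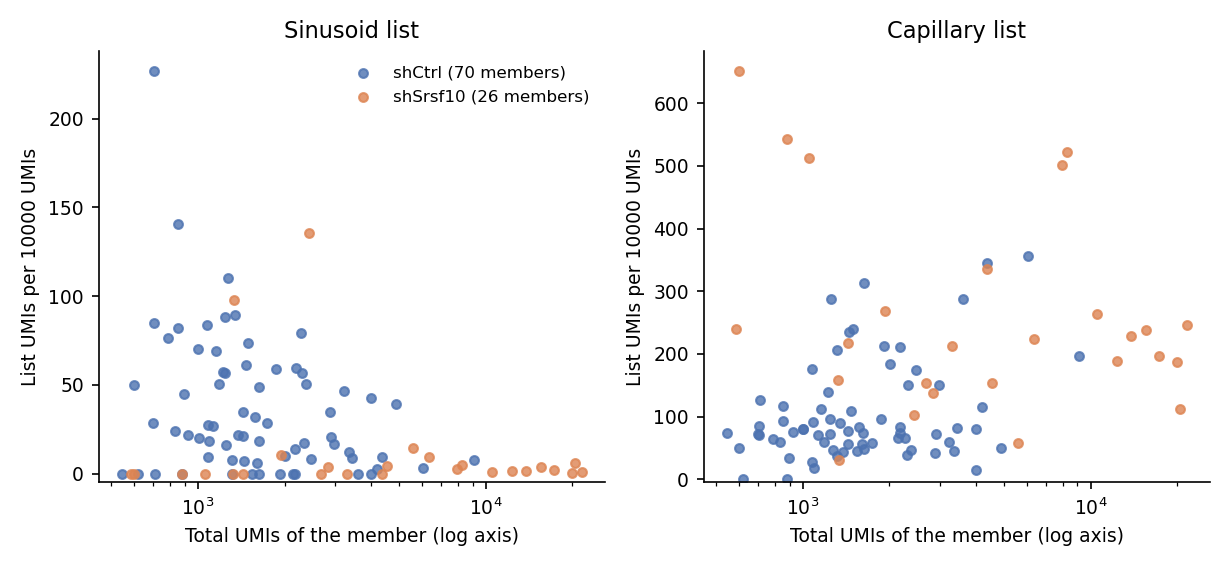
UMIs of the sinusoid list (left) and the capillary list (right) per 10000 UMIs (y) against total UMIs (x, log axis) in each of the 96 gate-rich members, by library. Sinusoid values lie near 0 in shSrsf10 members above 5000 UMIs and are high in 2 shallower ones, while capillary values reach higher in shSrsf10 below 5000 UMIs.

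Capillary RNA was higher in shSrsf10, but not in the deepest members. Fabp4 per 10000 UMIs ran from 0 over a median of 47.5 to 283 in the 76 shCtrl members and from 0 over 174 to 601 in the 30 shSrsf10 members. The ranges overlapped, but the shSrsf10 median lay well above the shCtrl one. Summed over gate-rich members, Fabp4 had 8627 CPM in shCtrl and 18171 in shSrsf10 (log2 1.07, 0.98 to 1.17), and within 1000 to 5000 UMIs 8020 and 17264. Above 5000 UMIs the difference was not seen, 17236 CPM in 2 shCtrl members and 18023 in 12 of shSrsf10. The whole capillary list was higher by a log2 of 1.31 in all members and 0.87 in gate-rich ones, against -0.07 in the other kept barcodes. By depth it had 11213 and 20312 CPM within 1000 to 5000 UMIs and, in the opposite direction, 26085 and 22995 above 5000. Its genes were not alike: against 23.4% higher and 21.1% lower over all genes, 4 of 6 were higher and 1 lower in all members. In gate-rich ones Fabp4 and Cd300lg, a receptor of capillary endothelium (log2 1.27), were at least 1.5-fold higher, Aqp1 (641 and 164 CPM, -1.97) and Rgcc (-0.78) were that much lower, and Gpihbp1 at 0.52 was under that fold. Emcn had 361 and 1180 CPM in gate-rich members (log2 1.71, 1.26 to 2.19), and 23 of 76 against 20 of 30 members had it. After thinning to 1000 UMIs, Emcn was in 18.4% of 61 shCtrl members (9.66 to 30.4) and 48.1% of 27 shSrsf10 members (28.6 to 68.0). These intervals overlapped.

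Ly6c1, Ly6a and Ubd were among the other genes with high shSrsf10 ratios. Ly6c1, a surface protein of capillary endothelium and some leukocytes, had 258 and 1603 CPM in gate-rich members (log2 2.64, 2.13 to 3.19), seen in 10 of 76 and 23 of 30 members. Ly6a, or Sca-1, had 641 and 3662 CPM (log2 2.51), in 26 and 25 members. The member counts of Ly6c1 and Ly6a are unthinned, and the median depth was 1555 UMIs in shCtrl and 5982.5 in shSrsf10. No values by depth are given for these genes. In the other kept barcodes, which also differed in their leukocytes, Ly6a was seen in 18.1% of shCtrl and 62.1% of shSrsf10. Ubd, an interferon-inducible ubiquitin-like modifier (chr17:37193892-37196095, plus strand), had 1 UMI in shCtrl and 102 in shSrsf10, where 10 of 30 members had it and 1 held 37. Plac8 had a log2 of 2.77 in all members and 1.84 in gate-rich ones. Gja4 had 89 UMIs against 13, but 41 and 9 of them were in 1 member each. Rarres2, a chemoattractant gene, had 69 of its 85 shSrsf10 UMIs in 1 member outside the gate-rich set.

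MHC class I genes were higher in shSrsf10 for 11 of 11 measured genes in all members and 10 of 11 in gate-rich ones (median log2 1.01). B2m, the light chain of the complex, had 2684 and 8043 CPM in all members, 4126 and 9213 in gate-rich ones. The list was also higher in the other kept barcodes (summed log2 1.45, against 1.12 in gate-rich members). Those are a mixture of cells, with Ptprc in 24.6% of them in shCtrl and 54.6% in shSrsf10. The part of this change in make-up in their MHC class I ratio was not tested. Within gate-rich members of 1000 to 5000 UMIs it had 7157 and 20496 CPM, and above 5000 UMIs, in the same 2 shCtrl members, 14066 against 16363. Interferon gamma genes were higher for 7 of 9 in all members, where 23.4% of all genes were, and for 3 of 8 in gate-rich ones, where 22.4% were. The second count is near the background, with Cxcl9 at 376 and 736 CPM and Cxcl10 at 818 and 1371 in the latter. Type I interferon genes were higher for 7 of 9 and 5 of 8. At least 2 UMIs of cycling genes were found in 31.6% of shCtrl and 63.3% of shSrsf10 members. After thinning the shares were 20.6% and 33.0%, with overlapping intervals, beside 26.7% and 31.8% of the other kept barcodes.

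The pan-endothelial list was higher in shSrsf10 for 8 of 21 genes and lower for 1 in all members. Over all genes these shares were 23.4% and 21.1%. In gate-rich members the list was higher for 5 and lower for 7, near the shares over all genes, 22.4% and 25.6%. In gate-rich members Cldn5 had 538 and 196 CPM (log2 -1.46, -2.07 to -0.87), the adhesion receptor Vcam1 had 391 and 100 (-1.96, -2.80 to -1.18), the growth factor Bmp2 had 295 and 68.8 (-2.10) and Apln had 199 and 42.3 (-2.23). The junction list, which holds Cldn5, had a summed log2 of -0.47, and the tip list, which holds Apln, -0.08. Vcam1 is on 2 lists that went opposite ways in gate-rich members. Leukocyte adhesion genes gave 0.150% of UMIs in shCtrl and 0.202% in shSrsf10, and vein genes 0.0670% and 0.0254%. Within gate-rich members of 1000 to 5000 UMIs the vein list had a log2 of 0.0011, so its difference was not seen there. Values by depth are not given for Cldn5, Vcam1, Bmp2 and Apln. The VEGF list had a summed log2 of -0.53 and the Notch list -0.29. The genes with the lowest ratios over all members were those of tumour epithelium and liver secretion, Hpx, Cxcl15, Ly6d, Ttr, Gsta3 and Fxyd3 (log2 -6.36 to -4.71). Gate-rich members held few of the shCtrl UMIs: 6 of 80 for Hpx, 5 of 66 for Cxcl15 and 5 of 202 for Ly6d. For Ttr they held 36 of 378, for Gsta3 8 of 61 and for Fxyd3 6 of 51. Of 202 Ly6d UMIs in shCtrl, 139 were in 1 member, and in gate-rich members the Ttr ratio was -2.33. Hepatocyte and tumour epithelial genes as a list were lower by a summed log2 of -3.76 in all members, -2.23 in gate-rich members and -2.61 in the other kept barcodes. In gate-rich members of 1000 to 5000 UMIs it had 4193 and 1102 CPM, and above 5000 UMIs, with 2 shCtrl members, 726 and 764. Macrophage genes were lower too (3 of 3 measured, where 21.1% of all genes were lower in all members and 25.6% in gate-rich ones). Most of their shCtrl UMIs were in the 1 member named above. The part of epithelial RNA in the endothelial ratios was not tested.

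**Figure D5:**
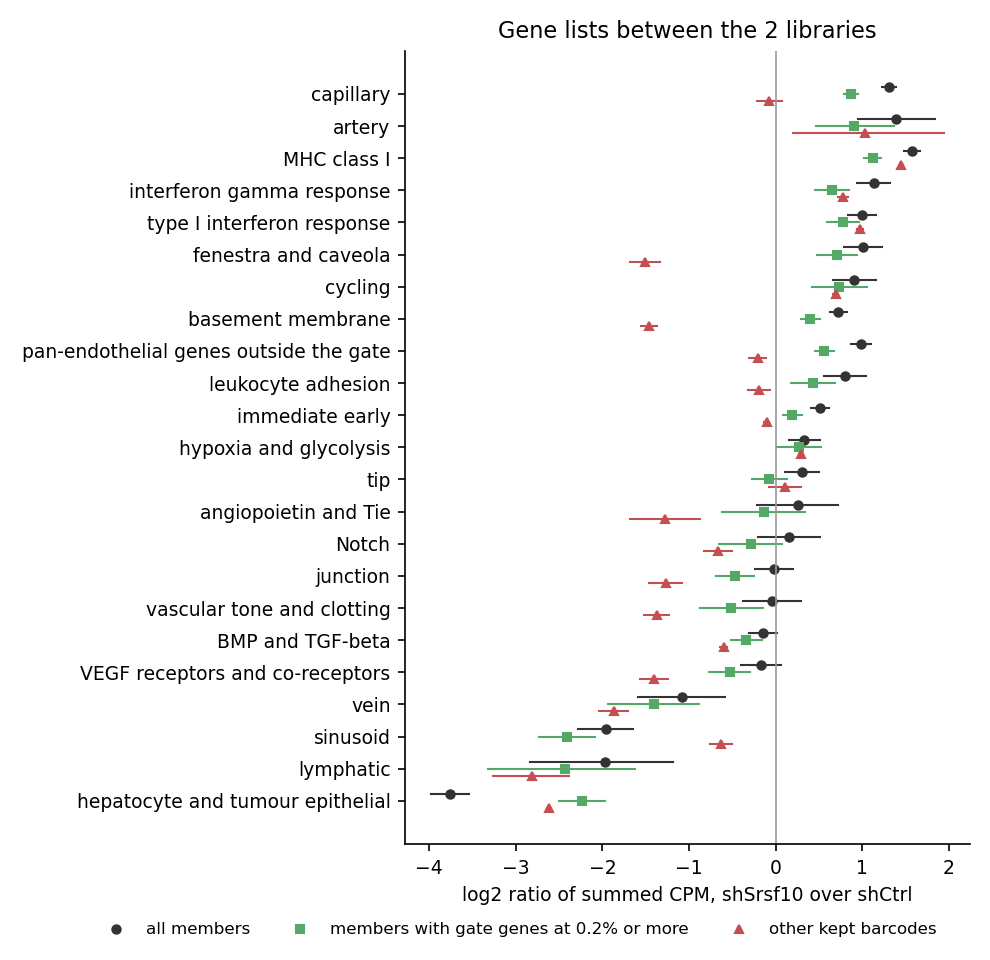
Log2 ratio of summed CPM (x), shSrsf10 over shCtrl, for each gene list (y) in all members, in gate-rich members and in the other kept barcodes, with 95% intervals of counting error. The sinusoid list lies at -1.95 and -2.40 in the members and at -0.63 in the others, and MHC class I lies above 1 in all 3.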

How the data were processed

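The authors deposited 1 matrix of raw UMI counts per library (10x Genomics format, 32285 features), made with Cell Ranger 6.1.0 and mm10 per the submitters' processing notes. The libraries held 143327661 (shCtrl) and 136419902 (shSrsf10) UMIs. The counts were used as deposited, with no doublet removal in the main analysis. Doublet scores (Scrublet in scanpy 1.11.5) served as an alternative that removed 1 of 76 and 0 of 30 members.

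UMIs summed within a library and class were scaled to CPM (Python 3.11.15, numpy 2.4.6, scipy 1.17.1). Ratios have exact conditional binomial 95% intervals, sums exact Poisson and shares Clopper-Pearson intervals. Genes needed 20 UMIs in the members, seen or expected from the compared class, or 20 over both libraries. A ratio with 0 UMIs on 1 side was taken at a floor of 3 counts. Named genes were the gate genes, Fabp4 and Col4a1, the 25 highest ratios to other kept barcodes (among genes outside the gate with at least 100 CPM and 20 UMIs in the members and a UMI in 20% of them), the 8 lowest (at least 200 CPM in the others), the most abundant members of each list, and the 6 highest and lowest library ratios with at least 40 UMIs; further members of fixed lists and Srsf10 were added after their values were seen. The members and gene lists were chosen with earlier results of these data known. Promoter windows came from RefSeq (GRCm38.p6) and gene positions from GENCODE vM21. Thinning used exact hypergeometric probabilities. The ratio scripts were tested on simulated data.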

Additional observations from a re-analysis of the deposited data

How the results depend on the processing

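No paired analysis was possible because each group has 1 library. The 25 leading genes kept a log2 ratio of 5.07 to 13.11 over the planned settings and in the gate-rich members, with 0 of 300 values under 2-fold. They were picked for high ratios in these same barcodes, which most settings reuse. Their staying high was therefore largely set by the choice and is a description. Of the values for single genes and lists, the 300 of the leading genes included, 541 moved by more than their counting interval, 941 did not and 8 changed sign. Requiring 3 UMIs of the sinusoid list gave 61.8% of shCtrl and 30.0% of shSrsf10 members. A gate of 6 UMIs gave a shCtrl share of 2.80%. With no minimum of UMIs, 3332 genes were higher and 1723 lower than in other kept barcodes, and 2208 higher and 3099 lower between libraries. In shCtrl alone 368 were higher and 179 lower, and in shSrsf10 alone 498 were higher than in other kept barcodes; fewer genes were measured there. Averaging CPM over barcodes gave 1063 genes lower in shSrsf10. Chosen after seeing the data, the gate-rich members gave a sinusoid log2 of -2.40, -0.57 within 1000 to 5000 UMIs and -2.94 without the richest member of each library. At 1000 to 5000 UMIs 266 genes were higher and 262 lower, and 258 and 282 without the richest members; fewer genes were measured. Values that changed sign between libraries were the mural list (-0.65 with a gate of 6, -0.48 in gate-rich members, -0.40 without the richest), the vein list (0.0011 at 1000 to 5000 UMIs) and the chemokine list (0.24 there without the richest). Against other barcodes they were the fibroblast list (-0.0043 in gate-rich members) and, with keratin-rich barcodes included, the chemokine (0.50) and macrophage (0.59) lists. The cause was not tested. With 30 shSrsf10 members, genes under about 20 UMIs could not be compared.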
